A study of Mus musculus with 6 samples.

Results

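Differentially methylated CHG regions that lie in introns, and in no exon, untranslated region (UTR), CpG island or island shore, were drawn from a deposited list of regions that differ between 2 groups of single mouse embryos. CHG is a cytosine followed by any base but G and then by G. Distinct regions were kept when at least 1 annotation entry called them intron and 0 entries called them exon, UTR, CpG island or shore, with chromosomes X and Y left out. This gave 255 of the 1850 autosomal CHG regions and of 9707 distinct regions in all. Of these regions 147 were listed as intron and nothing else. Repeats and promoters were not excluded, so 94 also touched a repeat and 21 also carried a promoter entry, of which 7 had both.

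The embryos were of C57BL/6 background and were taken at embryonic day 4.5, about 108 h after fertilised eggs had been injected with sperm small RNAs at 2 ng/µl. Embryos of both groups were cultured at 37 °C. The RNA came from stress-induced depressed males in the depressed group (3 embryos, replicates 1, 3 and 4) and from normal males in the normal group (3 embryos, replicates 1, 2 and 4), and both groups were injected. Each embryo was sequenced alone by bisulfite sequencing, in which an unmethylated cytosine is read as thymine and a methylated one as cytosine. The authors' deposited table holds 1 mean level per group and region, and a region statistic (a score, here signed as depressed minus normal), with no value, read count or coverage per embryo. Levels below are those group means, written as percent, so they carry no SD or n. No difference in level could be set against the spread between embryos, and every region had already been called by the authors. The tests given here compare classes of regions within the list.

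In mammals most methylated cytosines stand before a G, and CHG methylation is scarce outside oocytes, pluripotent cells and neurons. It is set by the de novo enzymes Dnmt3a and Dnmt3b, and mammals have no known enzyme that copies it at cell division. The blastocyst stage follows the wave of demethylation that removes most parental methylation, and introns make up most of the length of mammalian genes.

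The bases of the regions themselves were not used here, but for a pair of regions the RefSeq window around the start of the listed gene (250 bases before to 50 after it, build GRCm38.p6) lay under 1 kb away. They are shown because they carry the sequence nearest to a region of each direction. The intronic region of Ptn, which encodes the growth factor pleiotrophin, lay 675 bp from the window chr6:36810130-36810429 (minus strand) and stood at 0.0817% (depressed) against 36.6% (normal). That of Krt33b, a hair keratin gene, lay 839 bp from the window chr11:100029819-100030118 (minus strand) and stood at 41.8% (depressed) against 0.129% (normal). Capitals mark CHG sites on either strand, found as CAG, CTG, CCG and CGG, where CCG and CGG overlap in CCGG.
Ptn: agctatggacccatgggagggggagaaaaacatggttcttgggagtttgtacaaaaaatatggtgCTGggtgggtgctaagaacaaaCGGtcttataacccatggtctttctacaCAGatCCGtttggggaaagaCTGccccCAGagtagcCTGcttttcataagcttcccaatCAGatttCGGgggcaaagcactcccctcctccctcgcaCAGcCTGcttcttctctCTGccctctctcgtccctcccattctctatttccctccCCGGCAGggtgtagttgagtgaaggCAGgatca
Krt33b: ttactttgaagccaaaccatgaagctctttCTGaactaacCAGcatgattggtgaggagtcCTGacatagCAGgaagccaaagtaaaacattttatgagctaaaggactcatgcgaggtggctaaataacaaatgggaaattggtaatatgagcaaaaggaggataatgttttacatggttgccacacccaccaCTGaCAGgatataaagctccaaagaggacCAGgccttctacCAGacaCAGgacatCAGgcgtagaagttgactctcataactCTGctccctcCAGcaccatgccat
The Ptn window held 16 such sites and the Krt33b window 12, against a median of 22 over all 32851 windows, of which 32849 held at least 1. Both genes were chosen for their position after it had been seen.

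Of the 255 intron-only CHG regions, 242 had less methylation in the depressed than in the normal group and 13 had more. The share with more was 5.10%, with a 95% exact binomial interval over regions of 2.74 to 8.56%. Among all autosomal CHG regions of the list 91.3% were lower and 8.7% higher. Among the 242 lower regions, depressed levels ran from 0.0197 to 8.30% around a median of 0.101%, and normal levels from 2.76 to 74.3% around a median of 28.4%. The depressed level was under 1% in 206 of them and under 0.1% in 120. The normal level was under 10% in 17 regions, from 10 to 25% in 79, from 25 to 50% in 96 and above that in 50. In the 13 higher regions the depressed level ran from 9.70 to 41.8% (median 22.6%) and the normal level from 0.0653 to 2.69% (median 0.149%). In each direction, then, the group with the lower mean was close to 0 in nearly every region, and few regions had intermediate levels in both.

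**Figure D1:**
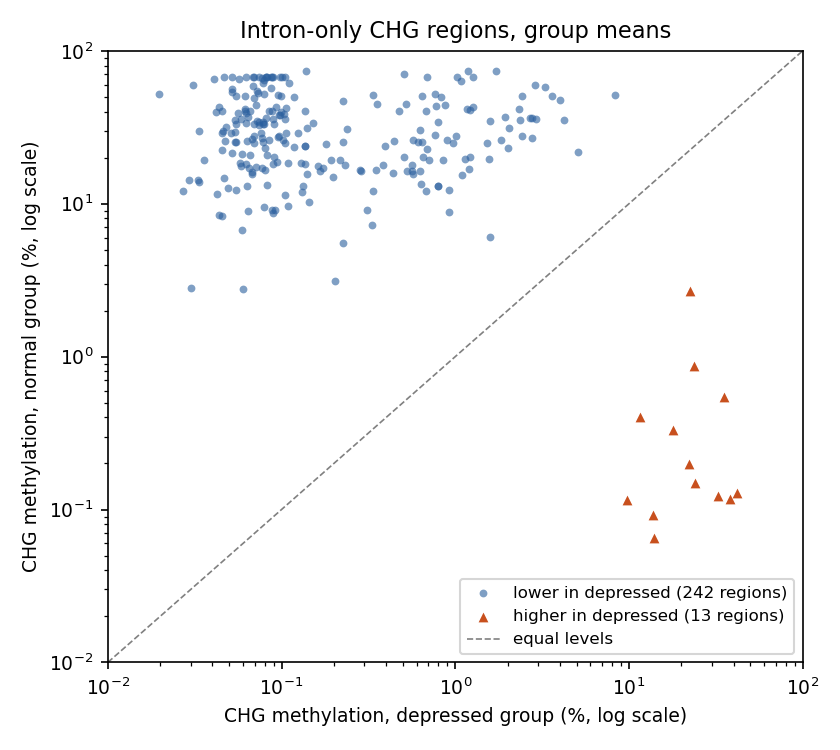
Group mean CHG methylation of the 255 intron-only regions, depressed group on the x axis and normal group on the y axis, both in percent on a log scale; each point is a region and the dashed line marks equal levels. The 242 lower regions sit at the upper left, with depressed levels up to 8.30%, and the 13 higher ones at the lower right, with normal levels up to 2.69%.

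The lower regions with the largest statistics lay in genes of several functions. The region in Rarres1, a retinoid-responsive gene, touched an ORR1D1 retroviral repeat (chromosome 3, 67504679 to 67504864, mm10, 29 CHG sites). It was at 1.52% (depressed) against 25.1% (normal). Atp8a1, a phospholipid flippase gene (chromosome 5, 67747659 to 67747947, 41 sites), was at 0.531% (depressed) against 16.2% (normal). Jarid2, which encodes an accessory subunit of the Polycomb repressive complex, stood at 0.925% (depressed) against 8.84% (normal).

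Genes of neuronal signalling were among the next. Gnao1, the alpha subunit gene of the inhibitory G protein Go (chromosome 8, 93921502 to 93921700, 20 sites), was at 0.0802% (depressed) against 23.3% (normal). Prkcb, which encodes protein kinase C beta, carried the longest region, 2048 bp with 18 sites (chromosome 7, 122629159 to 122631206), at 0.0733% (depressed) against 52.8% (normal). The region in Dab1, the adaptor of reelin signalling, stood at 0.0696% (depressed) against 33.2% (normal) and that in Psd3, an exchange factor gene for the small GTPase Arf6, at 1.02% (depressed) against 67.5% (normal). Radil, a gene for an effector of the GTPase Rap, was at 0.336% (depressed) against 51.7% (normal), and Mxd1, which encodes a partner of MAX, at 0.573% (depressed) against 26.1% (normal). The largest difference among the intron-only regions, 0.139% (depressed) against 74.1% (normal), lay in a gene without a name in the table (chromosome 9, 91447078 to 91447160) and rested on 4 CHG sites. The smallest, at Ubap2 (chromosome 4, 41203666 to 41203738), was 0.0603% (depressed) against 2.76% (normal).

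The 13 regions higher in the depressed group lay on 9 chromosomes and in genes each listed for 1 intron-only region. The strongest was in Mtss1, which encodes a membrane-bending actin regulator (chromosome 15, 58948360 to 58948501, 25 sites), at 11.6% (depressed) against 0.406% (normal). Myrfl, of the myelin regulatory factor family, stood at 13.97% (depressed) against 0.0653% (normal). Aspa, the aspartoacylase gene, stood at 23.5% (depressed) against 0.867% (normal). The sorting nexin gene Snx31 was at 13.7% (depressed) against 0.0923% (normal), the mRNA cap methyltransferase gene Cmtr1 at 24.1% (depressed) against 0.149% (normal) and the zinc finger gene Zfp113 at 22.2% (depressed) against 0.1996% (normal). The largest difference among the higher regions was that of Krt33b, given above. Katnal1, a gene of a microtubule-severing protein, had the highest normal level of the 13, with 22.6% (depressed) against 2.69% (normal). The calcium pump gene Atp2b2 (chromosome 6, 113762979 to 113763045, 7 sites) was at 37.9% (depressed) against 0.118% (normal). The other 4 regions, in Plekhh1, Eif4b, Abcc4 and an unnamed gene, had depressed levels from 9.70 to 35.2%. Of the 13 higher regions 0 overlapped a CHH region, beside 51 of the 255 intron-only regions in all (20%). With 13 regions the count is too small to compare with that share.

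Direction was set beside that of other classes with Fisher's exact test, two-sided, with Benjamini-Hochberg adjustment over 4 comparisons of classes. Regions of 1 gene are not independent. Of the other 1595 autosomal CHG regions 148 were higher (9.28%), against 13 of 255 (5.10%) in introns only (exact test, adjusted p = 0.0305). That difference was lost in 6 of 11 other settings and reversed in 1. By exact test it was 4.14% against 7.04% among regions that differ by at least 20 points (adjusted p = 0.188), 3.48% against 2.90% at 30 points (adjusted p = 0.766) and 5.81% against 9.43% with chromosomes X and Y (adjusted p = 0.0602). Without regions that overlap a CHH region it was wider, 6.37% against 17.5% (exact test, adjusted p = 2.92e-05). The 51 intron-only regions removed there were all lower, and overlap was more frequent in exons or UTRs (49.6% against 20%). That wider gap cannot be told apart from the effect of the removal, and is not stronger evidence on direction. By the same rule 409 CG regions were intron-only and 2 of them higher (0.489%, adjusted p = 0.000196 against the CHG regions by exact test), but the call was lost in 3 of 11 other settings. The shares were 5.13% for CHG and 1.27% for CG without chromosomes 9 and 10 (adjusted p = 0.0527 by exact test), 7.95% for CHG and 4.17% for CG with at least 10 cytosines (adjusted p = 1), and 6.58% for CHG and 2.86% for CG with a statistic at or above the CHG median (adjusted p = 0.884). The last 2 settings leave few CG regions and so decide little. Intron-only CG regions had a median of 5 cytosines and a median absolute statistic of 27.5, against 8 and 43.4 in intron-only CHG regions. The intron-only CHH regions, where H is any base but G, were mostly higher, with 2959 of 3290 (89.9%, exact test, adjusted p = 2.46e-193). The CHH share stayed above the CHG share in the 11 other settings run, but most CHH regions with large differences were lower, as CHG regions were. At 20 points 4.14% of CHG and 41.0% of CHH regions were higher (exact test, adjusted p = 1.50e-15), and at 30 points 3.48% of CHG and 29.2% of CHH regions (exact test, adjusted p = 2.80e-06). The higher CHH regions had medians of 4.76% (depressed) against 0.785% (normal). Every intron-only CHH region had at least 23 cytosines and an absolute statistic of at least 307, above the CHG maximum of 271. The settings on number of cytosines, statistic and CHH overlap left the CHH share at 89.9%, so they do not probe it.

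Intron-only CHG regions were shorter in the median than CHG regions in exons or UTRs, a call that was lost in 4 of 11 other settings. Their median length was 94 bp against 122 bp, with 253 of 255 at most 300 bp long, and the median was shorter on 17 of 19 autosomes and longer on 2 (exact sign test over chromosomes, two-sided, adjusted p = 0.00219 over 3 measures). Without regions that overlap a CHH region the medians were 88.5 and 99.0 bp, shorter on 14 of 19 autosomes (exact sign test, adjusted p = 0.191). By the same exact test the adjusted p was 0.0927 at 20 points, 0.147 at 30 points and 0.0927 without promoter entries. A region that touches an exon or UTR at any base is not intron-only, and a longer region can touch one more easily. The length test therefore cannot tell a trait of introns from an effect of the rule. Median normal levels of lower regions were 28.4% in introns only and 31.2% in exons or UTRs, higher on 8 and lower on 11 autosomes (exact sign test, adjusted p = 0.648). The density of CHG sites was 8.60 per 100 bp against 8.53, although the median was lower on 12 of 19 autosomes (exact sign test, adjusted p = 0.539). For level and density the test did not pass, which does not show that the classes are alike. Regions with 4 or 5 sites had a median normal level of 40.9% (46 lower regions) and those with 10 or more sites one of 23.9% (81 lower regions), given as a description.

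**Figure D2:**
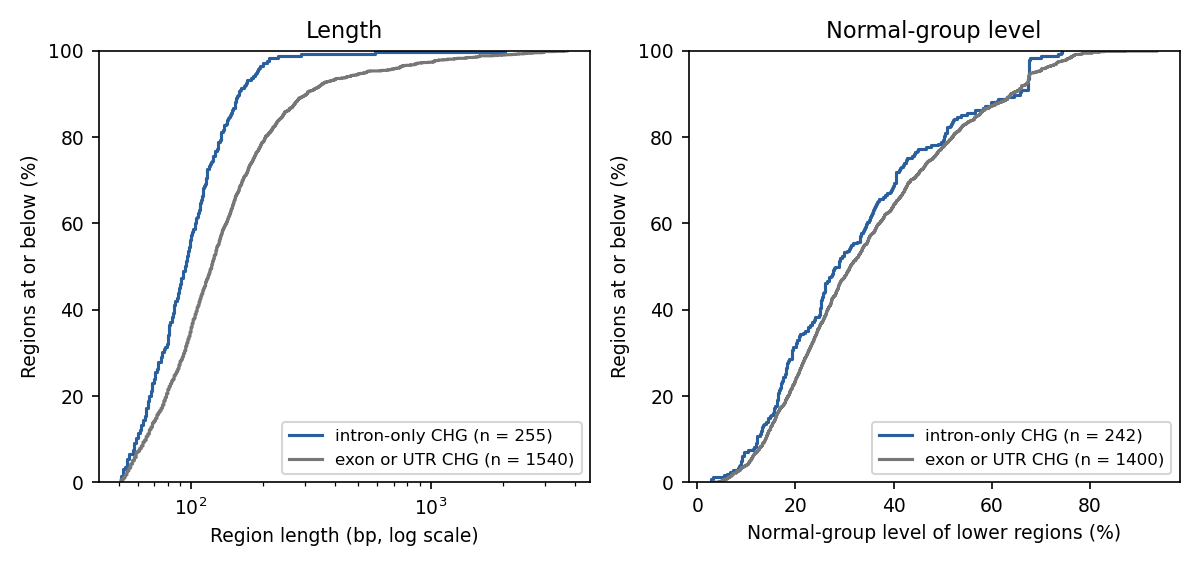
Cumulative share of regions (percent, y axes) by region length in bp on a log scale (left) and by the normal-group level of the lower regions in percent (right), for intron-only CHG regions and CHG regions in exons or UTRs. The intron-only curve lies to the left in length, with medians of 94 and 122 bp, while the level curves run close together and the intron-only one has a step near 67.5%.

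Regions of a further context, CHH, lay over some of the intron-only regions. CHH regions overlapped 51 of the 255 intron-only CHG regions (20%), against 764 of 1540 in exons or UTRs (49.6%; odds ratio 0.254 and adjusted p = 2.27e-19 by the same exact test). The difference held in the 11 other settings run, among them a stricter rule for overlap. The exon or UTR regions were also longer (median 122 against 94 bp) and had more sites (median 10 against 8). A longer region can overlap another more easily, and the test was not adjusted for length. With at least 10 cytosines the shares were 29.5% in introns only and 60.4% in exons or UTRs. All 51 intron-only regions with an overlap were lower in the depressed group in both contexts. At these places the CHH level had medians of 0.433% (depressed) against 25.4% (normal), and the CHG level medians of 0.1004% (depressed) against 29.0% (normal). The normal levels of the 2 contexts lay within 5 points in 41 of the 51 pairs, and the CHH level was the lower one in 39. Acly, the ATP citrate lyase gene, had a CHG level of 1.18% (depressed) against 73.5% (normal), and a CHH level of 0.297% (depressed) against 72.3% (normal). Asic2, an acid-sensing ion channel gene, was farthest apart, with a normal level of 45.0% in CHG and 15.8% in CHH. Of CG regions there was no such overlap, as 0 of the 255 overlapped one, which allows a share of up to 1.18% (3 regions of 255). Among the 1540 regions in exons or UTRs 34 did (2.21%). The rule keeps CpG islands and shores out of the intron-only regions but not out of those in exons or UTRs, which were also longer. The shares of CG overlap therefore do not show a difference between introns and exons.

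**Figure D3:**
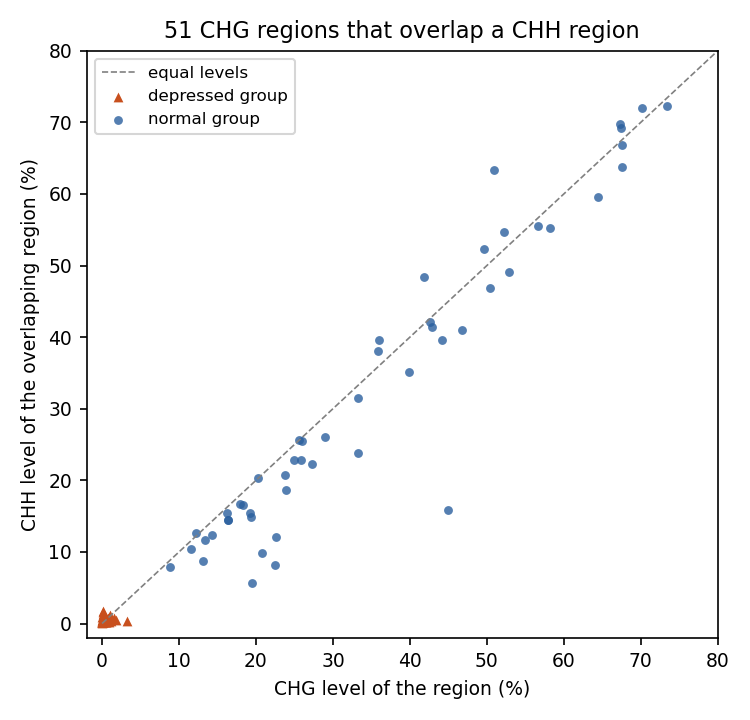
Level of each of 51 intron-only CHG regions (x axis, percent) and of the CHH region that overlaps it (y axis, percent), with a triangle for the depressed and a dot for the normal group; the dashed line marks equal levels. The depressed levels lie near the origin, with CHH levels up to 1.70%, and 41 of the 51 normal levels lie within 5 points of the line.

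Some normal levels recurred exactly. In 26 of the 255 regions (10.2%) the normal level was equal to 7 decimals (as a fraction) to that of another CHG region of the list, against 47 of 1540 in exons or UTRs (3.05%). All 26 were lower in the depressed group, had 4 to 13 CHG sites and lay between 40.4 and 67.8%. Of them 16 lay between 67 and 68% and took 6 distinct values. The value 67.4864% occurred in 14 autosomal CHG regions, among them the intron-only regions of Brinp1, Mecom and AI314180, and it came from 2 chromosomes, 3 and 4. The value 67.5349% occurred in 12 regions, among them those of Psd3, Csmd1 and Nwd1. With such regions left out of every class, the share higher was 5.68% against 9.56% in the other ones (exact test, adjusted p = 0.0634). How the authors' levels come to be equal was not tested.

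**Figure D4:**
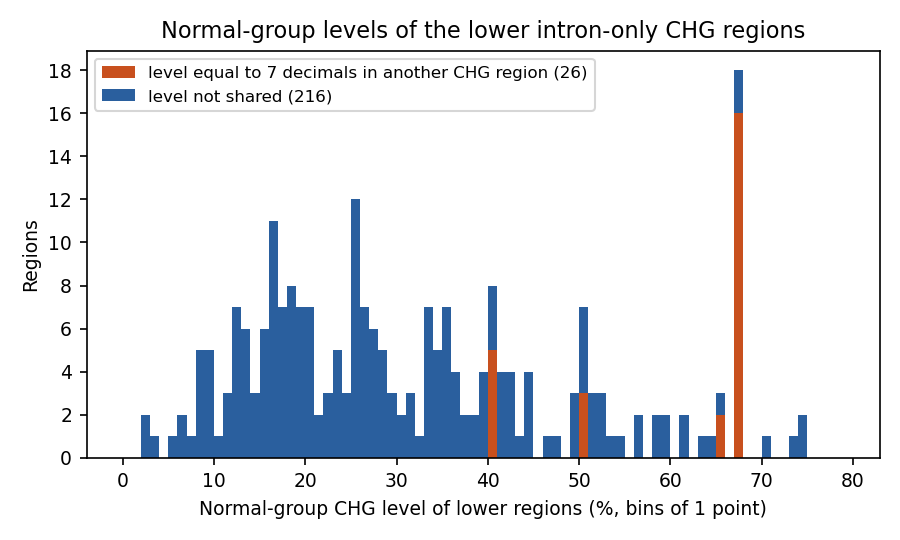
Number of lower intron-only CHG regions (y axis) by normal-group level (x axis, percent, bins of 1 point), with regions whose level is equal to 7 decimals to that of another CHG region in a second colour. The tallest bar, between 67 and 68%, holds 18 regions, of which 16 have a level found elsewhere.

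The 255 regions were listed with 226 gene names, of which 224 matched a RefSeq symbol or synonym, and 14 regions were listed with genes that have no name in the table. The genes were long. Genes listed for an intron-only CHG region made up 223 of 20665 protein-coding autosomal genes (1.08%), and genes with a CHG region in an exon or UTR 6.49%. Their median span was 120 kb against 17.5 kb for all protein-coding genes, and 33.8 kb for those with a CHG region in an exon or UTR. The last group holds every gene named for a region that touches an exon or UTR. Some can be named there by an intron or promoter entry only, so the number of such genes can be too high. Of genes over 100 kb 5.58% carried an intron-only region (129 of 2313), against 0.512% of the shorter ones (94 of 18352). Along the 190 regions whose gene had a strand at hand, 58 lay in the first of 4 equal stretches from the gene's start, 43 and 42 in the next ones and 47 in the last. By chromosome the number ran from 3 on chromosome 16 to 31 on chromosome 2, and chromosomes 9 and 10 held 21. The intron-only regions were thus spread over the gene body and over all 19 autosomes.

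Most genes, 211 of 226, carried 1 region, and 15 genes carried 35 regions, all lower in the depressed group. Celf2, encoding a splicing regulator rich in neurons and muscle, carried 6 over 720 kb. Its depressed levels were 0.104 to 2.92% and its normal levels 35.7 to 61.1% over the 6 regions. The strongest (chromosome 2, 6881141 to 6881274) was at 1.22% (depressed) against 41.2% (normal). Fgf14, an intracellular modulator of sodium channels, carried 3, each touching a repeat. They stood at 2.41% (depressed) against 50.3% (normal), 0.0293% (depressed) against 14.3% (normal) and 0.310% (depressed) against 9.13% (normal). Nrxn3, a gene of a presynaptic adhesion receptor, stood at 0.104% (depressed) against 35.6% (normal) and at 0.763% (depressed) against 51.8% (normal). Grin2b, an NMDA receptor subunit gene, had 0.217% (depressed) against 19.2% (normal) and 0.0956% (depressed) against 51.5% (normal). The protocadherin gene Pcdh9 had 2.89% (depressed) against 59.8% (normal) and 0.0643% (depressed) against 37.1% (normal). Rere, a nuclear receptor corepressor gene, held the region with the lowest normal level of the 35, with 0.0635% (depressed) against 13.1% (normal) and 0.225% (depressed) against 5.50% (normal). Copg2, a coatomer subunit gene and an imprinted gene, had 0.7996% (depressed) against 13.1% (normal) and 1.17% (depressed) against 41.9% (normal) within 3.63 kb, and a CHH region overlapped each.

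**Figure D5:**
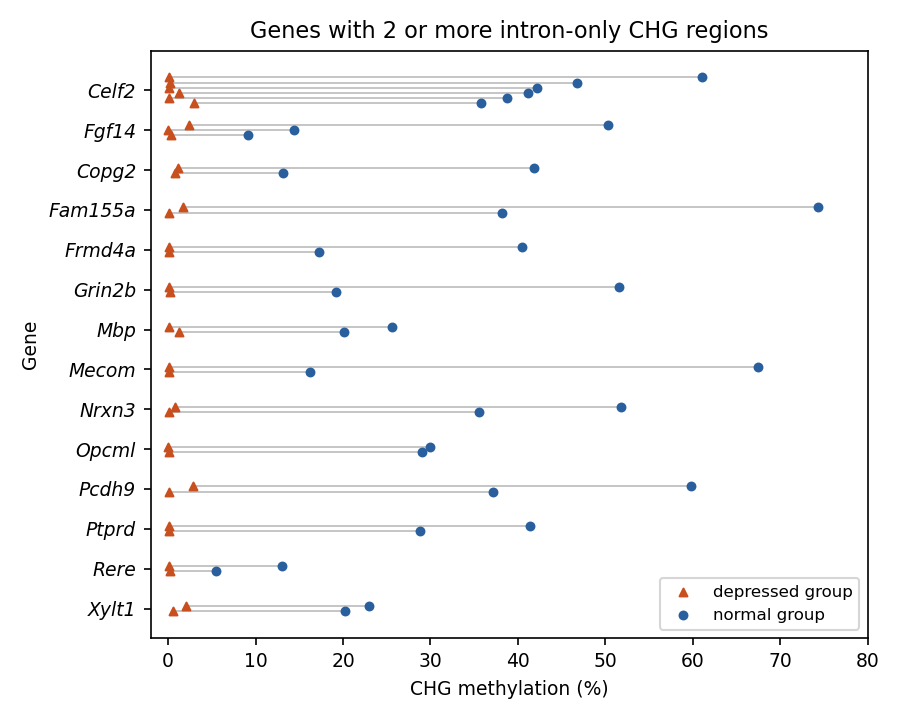
CHG methylation (x axis, percent) of 33 intron-only regions in 14 of the genes listed for 2 or more of them (y axis), with a triangle for the depressed and a dot for the normal group and a line joining the levels of a region. Every depressed level is at most 2.92% and every normal level at least 5.50%.

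The highest shares among the gene lists, beside the 1.08% of all protein-coding genes, were those of adhesion, channel and cytoskeletal genes, in lists with median gene spans from 65.9 to 502 kb. The same lists also had CHG regions in exons or UTRs in 9 of 52 adhesion genes (17.3%), 11 of 37 channel genes (29.7%) and 20 of 39 cytoskeletal genes (51.3%), beside the 6.49% of all protein-coding genes. Of 52 genes of synaptic and neural adhesion 9 carried an intron-only CHG region (17.3%; median span of the list 502 kb), and all 13 of their regions were lower. Among them were Nrxn3, Nfasc, the neurofascin gene (0.0804% depressed against 16.6% normal), Csmd1 (0.0883% depressed against 67.5% normal), Ptprd, Opcml, Lsamp, Ntm and Cntnap2, with normal levels from 8.72 to 67.5% over the list. Of 37 potassium and sodium channel genes 7 carried one (18.9%; 170 kb), all lower and all potassium channels. Kcnb2, a delayed rectifier subunit gene, was at 0.0693% (depressed) against 49.1% (normal) and Kcnc2, of the fast Kv3 family, at 0.0874% (depressed) against 56.7% (normal). Kcnh1, a gene of the ether-a-go-go channel family, was at 0.0592% (depressed) against 21.0% (normal). Of 39 cytoskeletal genes 8 carried one (20.5%; 65.9 kb), all lower, among them the spectrin gene Sptan1 (0.0950% depressed against 27.3% normal), the dendritic microtubule protein gene Map2 (0.0550% depressed against 50.9% normal) and the kinesin gene Kif5c (0.562% depressed against 16.4% normal).

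The lists of receptors, calcium proteins, synaptic, axon guidance, RNA-binding, MAP kinase and stress hormone genes had smaller shares, from 2.08 to 10%. Those shares stand beside the 1.08% of all protein-coding genes. The median gene spans of these lists ran from 41.9 to 298 kb, and no adjustment was made for gene length. Of 24 inhibitory receptor genes 2 carried an intron-only CHG region, among them the GABA receptor subunit gene Gabrb1 (0.0904% depressed against 33.4% normal), and Grin2b was 1 of 26 glutamate receptor genes. Of 37 calcium channels, pumps and calmodulin kinases 3 carried a region, the kinase subunits Camk2b (1.198% depressed against 16.8% normal) and Camk2a (1.84% depressed against 26.0% normal) lower and Atp2b2 higher. Postsynaptic genes had 3 of 30, Anks1b (0.0775% depressed against 26.9% normal), Dlgap1 (0.152% depressed against 33.9% normal) and Magi2 (0.0934% depressed against 42.8% normal). Presynaptic release genes had 1 of 48, the active zone gene Erc2 (0.0698% depressed against 27.7% normal). Of these 48 genes 16 had a CHG region in an exon or UTR (33.3%), beside 6.49% of all protein-coding genes. Axon guidance genes had 3 of 50, Dpysl2 (0.0337% depressed against 13.9% normal), Sema7a (0.0592% depressed against 6.74% normal) and Unc5c (5.09% depressed against 21.9% normal). RNA-binding genes had 2 of 36, Celf2 and Celf4 (0.140% depressed against 15.6% normal), and MAP kinase genes 2 of 45, Mapk9 (0.0824% depressed against 20.7% normal) and Mapk10 (0.109% depressed against 18.4% normal). Of the stress hormone, monoamine and neurotrophin list 1 of 46 carried one, the neurotrophin receptor gene Ntrk3 (0.102% depressed against 26.0% normal).

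Lists of the early embryo and of the methylation machinery held 0 or 1 gene each, beside the 1.08% of all protein-coding genes, and such counts are too small to compare with that share. Of 37 genes of the DNA methylation and small RNA pathways 1 carried a region, the de novo methyltransferase gene Dnmt3a (chromosome 12, 3819524 to 3819599, 8 sites; 0.0921% depressed against 9.10% normal). Copg2 was 1 of 57 imprinted genes. The pluripotent epiblast list had 0 of 20 genes, the primitive endoderm list 0 of 16, the Wnt pathway 0 of 53 and the reference genes 0 of 30. Of these 30 reference genes 13 had a CHG region in an exon or UTR (43.3%), beside 6.49% of all protein-coding genes. The trophectoderm list had 1 of 17, Fgfr2, but that region lay 788 kb from the RefSeq span of Fgfr2 and inside Dmbt1 (0.1004% depressed against 67.5% normal). Among marker lists of other cell types, neurons had 4 of 25 (Map2, Camk2a, Camk2b and Celf4), astrocytes 1 of 17, the glutamate transporter gene Slc1a2 (0.0517% depressed against 56.6% normal), oligodendrocytes 1 of 19, the myelin gene Mbp (strongest region 1.21% depressed against 20.1% normal), sperm and germ cells 1 of 18, the sperm tail gene Odf2 (0.627% depressed against 30.4% normal), and microglia 0 of 12. Over the 24 lists 48 of 765 genes carried a region (6.27%), with no adjustment for gene length.

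Some genes carried CHG regions in both places. Of the 226 genes 50 (22.1%) were also named for a CHG region that touches an exon or UTR, which is 3.66% of the 1367 genes so named. The exon or UTR can belong to another gene named for the region, so these counts can be too high. Over all protein-coding genes the shares were 6.49% for such a region and 1.08% for an intron-only one. Genes with an intron-only region are long, as given above, and no adjustment was made for gene length. In 46 of the 50 every region had the same direction, beside 242 of 255 intron-only and 1400 of 1540 exon or UTR regions that were lower in all. The 50 include both Dmbt1 and Fgfr2, which are listed for the same intron-only region. In Ank2, an ankyrin gene, the strongest regions were alike, at 0.137% (depressed) against 24.0% (normal) in the intron and at 0.131% (depressed) against 24.0% (normal) in the exon. In the tau gene Mapt the intronic region stood at 0.0674% (depressed) against 26.5% (normal) and the 3′ UTR at 0.1001% (depressed) against 31.4% (normal). In Dpysl2 the intron was at 0.0337% (depressed) against 13.9% (normal) and the 3′ UTR at 0.0791% (depressed) against 78.5% (normal). The other 4 genes, named after their values were seen, had both directions. Atp2b2 and Eif4b were higher in the intron and lower in an exon or UTR, with 0.169% (depressed) against 36.1% (normal) at the 5′ UTR of Atp2b2 and 1.60% (depressed) against 49.1% (normal) at the 3′ UTR of Eif4b (intron 32.7% depressed against 0.122% normal). Zfp292 and Tusc5 were lower in the intron, at 0.0454% (depressed) against 29.0% (normal) and at 0.334% (depressed) against 7.30% (normal), and higher in an exon or UTR, at 13.4% (depressed) against 0.360% (normal) and at 41.9% (depressed) against 0.165% (normal).

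The 90 lower regions that touched a repeat had medians of 0.101% (depressed) against 30.7% (normal), and the 152 that did not had 0.101% (depressed) against 27.5% (normal). LINE elements were touched by 28 regions, all lower, SINEs by 39, of which 38 were lower, and LTR elements by 28, of which 26 were lower. Median normal levels of the lower ones were 30.3% for LINE, 31.9% for SINE and 33.1% for LTR elements. The 20 lower regions with a promoter entry had medians of 0.0728% (depressed) against 19.3% (normal), and the other 222 had 0.103% (depressed) against 29.4% (normal). These medians describe the list, and no test was run on them.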

How the data were processed

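DNA of 6 single embryos was sequenced after bisulfite conversion. Per the submitters' processing notes, reads went through Trim Galore 0.3.3, Bismark and SAMtools on mm10. How regions were called, with which thresholds and coverage, and the conversion rate: not given in the sources used here. A cytosine that escapes conversion, or is hydroxymethylated, also reads as methylated. Per the file headers the deposited table gives group mean methylation as a fraction (printed here as percent) and a region statistic, a score. Depth is unknown, so levels have no interval. The 18732 annotation entries were collapsed to distinct regions, and 401 of them belong to the 255 regions described. The difference equals depressed minus normal within 1e-09. Classes were compared with Fisher's exact test, and by exact sign test over autosomes with at least 3 regions of each class (Python 3.11.15, pandas 2.3.3, scipy 1.17.1), after a run on simulated regions. Exact intervals over regions (95%) cover counting only. Overlap means at least 1 bp.

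The members, the 24 gene lists and the tests were chosen with earlier results of these data known. Named genes were the 12 lower and 8 higher regions with the largest statistic, up to 8 genes with 2 or more regions, the longest, most CHG-rich and most and least different regions, and up to 4 genes of each list. Genes named beyond this rule (Ptn, Acly, Asic2, Ank2, Mapt, the remaining adhesion genes, higher regions and genes with recurring levels) were chosen after their values were seen. Some genes that the rule names are not reported here. Gene spans and start windows come from RefSeq (GRCm38.p6). The alternatives changed the smallest difference, the smallest number of sites, the statistic, chromosomes, repeat and promoter entries, 1 region per gene and overlap with CHH regions; leaving out recurring levels was added after seeing the data.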

Additional observations from a re-analysis of the deposited data

How the results depend on the processing

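Of 88 values recomputed for 8 results, 71 kept their direction and their side of the threshold. The share higher stayed between 3.48 and 7.95%. The comparison with other CHG regions (main difference -4.18 points) was not past the threshold at 20 points (-2.90), with at least 10 cytosines (-1.33), with a statistic at or above the CHG median (-1.08), with chromosomes X and Y (-3.61), without repeat entries (-3.76) and without recurring levels (-3.88), and it reversed at 30 points (0.580). The comparison with CG regions (4.61 points) was not past it with at least 10 cytosines (3.79), at the higher statistic (3.72) and without chromosomes 9 and 10 (3.85). The difference in length (-28 bp) was not past it at 20 points (-29), at 30 points (-35), without promoter entries (-25.5) and without regions that overlap a CHH region (-10.5). The density of sites, which did not pass in any setting, changed sign at 20 points (-0.0663), without chromosomes 9 and 10 (-0.0443) and without CHH overlap (-0.250), against 0.0750 per 100 bp. The cause of these changes was not tested. The setting without CHH overlap gives no value for the share that overlaps a CHH region. No paired analysis was possible because the table holds group means only, so replicate numbers attach to no value, and no embryo could be left out.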

Other observations

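The 14 intron-only CHG regions in genes without a name in the table included 13 lower ones, with depressed levels from 0.0522 to 2.76% and normal levels from 11.4 to 74.1%. The other 1 was higher, on chromosome 3 (49080590 to 49080685) and touching an RLTR25B retroviral repeat, at 17.9% (depressed) against 0.332% (normal). A pair of the 14 lay in the same gene on chromosome 3 (34353580 to 34353689 and 34573428 to 34573520), at 0.104% (depressed) against 11.4% (normal) and at 1.26% (depressed) against 42.6% (normal).

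By repeat class, LINE/L1 elements were touched by 26 regions, SINE/Alu by 17, LTR/ERVL-MaLR by 16, SINE/B2 by 12 and SINE/B4 by 10. Igsf5, like Fgfr2, was listed for a region outside its RefSeq span, 55.8 kb away.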
